A study of Mus musculus with 2 samples.

Results

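The genes described here are 9 genes that B cells use to build and read out their antigen receptor: Cd79a, Cd79b, Syk, Btk, Blnk, Cd22, Cd72, Cr2 and Ms4a1. They were taken by symbol from the 31253 genes of the deposited count matrices, with earlier results of these data known, and all 9 were found. Live CD45+ single cells (DAPI-negative, sorted as singlets) came from mouse livers with metastases grown from the melanoma line B16F10 and were profiled with 10x Genomics 5′ single-cell RNA sequencing. The genotypes were WT and Vsig4-/- (written Vsig4 KO), with 1 library each; the deleted gene is Vsig4, which encodes a complement receptor of liver macrophages. Both libraries came from tumour-bearing livers, no tumour-free liver was analysed here, the labels name no cell type or promoter to which the Vsig4 deletion was restricted, and they do not say how many mice, or of what age, a library held.

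The B cell antigen receptor is a membrane immunoglobulin held by a pair of signal chains, CD79A (Ig-alpha) and CD79B (Ig-beta), whose phosphorylated tails recruit the kinase SYK. SYK phosphorylates the adaptor BLNK, which brings BTK to phospholipase C-gamma and opens the calcium and NF-kB arms of the response. CD22 and CD72 are coreceptors whose tails recruit the phosphatase SHP-1 and damp that signal, CD21 (encoded by Cr2) binds complement-coated antigen and lowers the threshold for the response to it, and CD20 (encoded by Ms4a1) is a surface protein of B cells before the plasma cell stage. CD72 has also been reported as a ligand of CD5, a scavenger-family receptor of T cells and of some B cells.

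The start regions of 4 of the genes are printed because their level differs in kind across the cells below. Blnk was shared by B cells and plasmacytoid dendritic cells (pDC), and Cd22 and Cr2 were found mostly in B cells. Cd72 was spread over B cells, macrophages, pDC, NK cells and other classes, and its macrophage level depended on the clustering. Each window runs from 250 bases before to 50 bases after the start site in RefSeq's annotation of GRCm38.p6, 5′ to 3′ on the gene's strand, and capitals mark motif matches. The Blnk window is chr19:40994172-40994471 (minus strand), with the octamer in capitals, and the Cd22 window is chr7:30878979-30879278 (minus strand), with an EBF-type match in capitals. The Cd72 window is chr4:43454577-43454876 (minus strand), with an ETS-type match in capitals, and the Cr2 window is chr1:195176670-195176969 (minus strand), which held none of the 3 motifs.
Blnk: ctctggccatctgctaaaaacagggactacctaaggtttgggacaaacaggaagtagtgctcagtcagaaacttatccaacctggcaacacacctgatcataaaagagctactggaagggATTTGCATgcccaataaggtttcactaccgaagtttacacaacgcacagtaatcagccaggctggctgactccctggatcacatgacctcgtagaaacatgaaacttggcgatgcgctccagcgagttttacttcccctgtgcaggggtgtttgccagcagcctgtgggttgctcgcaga
Cd22: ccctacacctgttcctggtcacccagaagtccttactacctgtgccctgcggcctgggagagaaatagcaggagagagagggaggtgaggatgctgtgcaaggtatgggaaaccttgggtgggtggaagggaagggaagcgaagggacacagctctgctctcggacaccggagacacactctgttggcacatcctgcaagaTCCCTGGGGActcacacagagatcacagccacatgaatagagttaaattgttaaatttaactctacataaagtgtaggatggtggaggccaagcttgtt
Cd72: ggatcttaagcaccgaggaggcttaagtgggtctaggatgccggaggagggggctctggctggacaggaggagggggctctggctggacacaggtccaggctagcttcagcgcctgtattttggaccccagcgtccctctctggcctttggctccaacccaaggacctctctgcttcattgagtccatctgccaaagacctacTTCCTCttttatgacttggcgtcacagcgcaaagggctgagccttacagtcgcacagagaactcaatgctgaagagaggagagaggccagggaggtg
Cr2: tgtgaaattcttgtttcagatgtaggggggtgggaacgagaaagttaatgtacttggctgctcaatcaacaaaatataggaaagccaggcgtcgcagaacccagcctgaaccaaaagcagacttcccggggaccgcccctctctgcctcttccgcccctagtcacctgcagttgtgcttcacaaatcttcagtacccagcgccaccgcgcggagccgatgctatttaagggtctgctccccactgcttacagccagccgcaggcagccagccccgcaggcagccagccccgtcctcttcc

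Of the 9 genes, 7 matched the table of start regions, with 8 windows because Syk has a pair of them; Cd79b and Ms4a1 had none there. Motifs were searched by their letters on both strands: TCCCNNGGG for EBF, ATGCAAAT for the octamer and GAGGAA for ETS factors. The Blnk octamer stands 130 bases before the start site and reads as its reverse complement; 1.74% of all 32851 windows of this length held an octamer, and 1 of the 8 did. In Cd22 the EBF letters match on both strands in overlapping positions, 49 and 48 bases before the start, and 6.56% of all windows held such a match against 1 of the 8. The ETS letters, which 28.3% of all windows held, were found in 4 of the 8, in Cd72 at 47 and in Cd79a at 140 bases before the start. These matches describe letters only.

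In mm10 coordinates (GENCODE M21), Cd79a lies on chromosome 7 from 24897381 to 24902197 and Cd22 on the same chromosome from 30865402 to 30880342. Cd79b lies on chromosome 11 from 106311341 to 106314762, Cd72 on chromosome 4 from 43446462 to 43454628, and Syk on chromosome 13 from 52583173 to 52648792. Blnk (40928927 to 40994535) and Ms4a1 (11249675 to 11266241) are both on chromosome 19, Btk is on chromosome X from 134542336 to 134583570, and Cr2 is on chromosome 1 from 195136811 to 195176716. The counts are over whole genes. Cr2 encodes CD21 and CD35 from 1 gene in the mouse, so its count does not separate them.

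Total depth was 28537154 UMIs over 6929 barcodes in WT and 25119175 UMIs over 5799 barcodes in Vsig4 KO. In these libraries 6491 and 5479 cells were kept, with a median of 3027 and 3271 UMIs, and 54 barcode sequences occurred in both libraries. Vsig4 itself had 43 UMIs in WT cells and 3 in Vsig4 KO cells, of which 35 and 1 were in macrophages. With 1 library per genotype there is no replicate, so no test was run; levels are CPM (UMIs of a gene per 1000000 UMIs of a cell class), and the intervals are exact 95% intervals of the counting error alone (Poisson for CPM, conditional binomial for ratios, Clopper-Pearson for shares). A gene is called higher or lower where its CPM ratio is at least 1.5-fold with at least 50 UMIs over both libraries. Class names stand for clusters that score as such on marker lists, for example B cell-like; 541 WT cells (8.34%) and 414 Vsig4 KO cells (7.56%) were in clusters left unnamed.

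B cells were defined as cells of B cell-like clusters with at least 1 raw UMI of Ebf1, Pax5 or Fcmr, of which the first 2 are B lineage transcription factors and the third is the IgM Fc receptor. This gave 1730 WT cells (26.7% of kept cells) with a median of 2419 UMIs and 1894 Vsig4 KO cells (34.6%) with a median of 2788. Of the genes used in that condition, Ebf1 was at 2283 and 2013 CPM and Pax5 at 640.4 and 521 CPM. The Ebf1, Pax5 or Fcmr condition left out 9 WT and 13 Vsig4 KO cells of those clusters. Cells with such a UMI outside them numbered 151 and 146 in the plasma cell cluster and 200 and 129 in other clusters, and the results on pDC and myeloid classes are given with and without them.

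Cd79a was the member seen in nearly every B cell: 98.8% of WT and 99.1% of Vsig4 KO B cells held a UMI, and after thinning every cell to 1000 UMIs the shares were 93.6% and 94.9%. In CD8 T cells, which should lack it, the thinned shares were 0.184% and 0.398% at median depths of 3852 and 4310 UMIs. Cd79a stood at 3130 CPM in WT B cells (14129 UMIs) and 3263 CPM in Vsig4 KO B cells (18584 UMIs), a ratio of 1.04 (1.02 to 1.07). The interval leaves out 1 and covers counting error only, with no further library of either genotype to show how far such values vary.

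Cd79b, the partner chain, stood at 1227 CPM in WT and 1170 CPM in Vsig4 KO B cells, a ratio of 0.954 (0.920 to 0.988). The chains therefore sat on opposite sides of 1, and there were 39.2 Cd79b UMIs per 100 Cd79a UMIs in WT and 35.9 in Vsig4 KO B cells. These are UMI ratios between genes of unlike length and sequence, so they compare libraries and cell groups rather than the amounts of the chains. After thinning, 62.0% of WT and 59.3% of Vsig4 KO B cells held both chains, and 31.7% and 35.6% held Cd79a alone.

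Of the cytoplasmic members, Syk, the first kinase of the pathway, was at 960 CPM in WT and 951 CPM in Vsig4 KO B cells, a ratio of 0.991 (0.952 to 1.03). Blnk, the adaptor, was at 378 and 355 CPM, a ratio of 0.938 (0.879 to 1.001). Btk, the kinase that BLNK positions, was at 133 and 145 CPM, a ratio of 1.096 (0.985 to 1.22). The intervals of these 3 genes all took in 1. Thinned shares of B cells with a UMI were 58.5% and 56.9% for Syk, 29.8% and 28.7% for Blnk, and 11.6% and 12.4% for Btk, against unthinned shares of 84.7% and 87.3%, 55.7% and 58.8%, and 28.2% and 31.8%. In CD8 T cells the thinned shares of Syk were 0.368% and 0.596%, and no CD8 T cell held a thinned Blnk or Btk UMI, which, with a count of 3 taken as the limit that 0 allows, leaves room for up to 0.552% of them in WT and 0.596% in Vsig4 KO.

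The inhibitory coreceptors stood on opposite sides of 1. Cd22, a sialic acid-binding lectin, was at 240 CPM in WT and 214 CPM in Vsig4 KO B cells, a ratio of 0.891 (0.821 to 0.968). Cd72, a C-type lectin-like protein, was at 200 and 220.5 CPM, a ratio of 1.104 (1.01 to 1.203). Thinned shares were 20.0% and 18.8% for Cd22 and 15.7% and 18.6% for Cd72, while unthinned shares were 42.9% and 43.2%, and 33.0% and 38.9%. Thinned CD8 T cells gave 0.184% and 0.398% for Cd22 and 1.11% and 0.994% for Cd72.

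Cr2, the complement coreceptor, was at 110.1 CPM in WT and 96.0 CPM in Vsig4 KO B cells, a ratio of 0.872 (0.771 to 0.987), the lowest of the 9. Its thinned share was 10.1% and 7.69% of B cells, and its unthinned share 21.4% and 19.5%, against thinned CD8 T cell shares of 0% and 0.199%. Ms4a1, the CD20 gene, was at 647 and 638 CPM, a ratio of 0.986 (0.939 to 1.04), with thinned shares of 40.9% and 42.9% and unthinned shares of 66.8% and 70.8%. In all, 0 of the 9 members passed 1.5-fold between the libraries in B cells, where 6.08% of the 9206 genes tested did, and their ratios ran from 0.872 to 1.104. The median log2 ratio was -0.02 for the members and 0.01 for all genes tested.

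**Figure D1:**
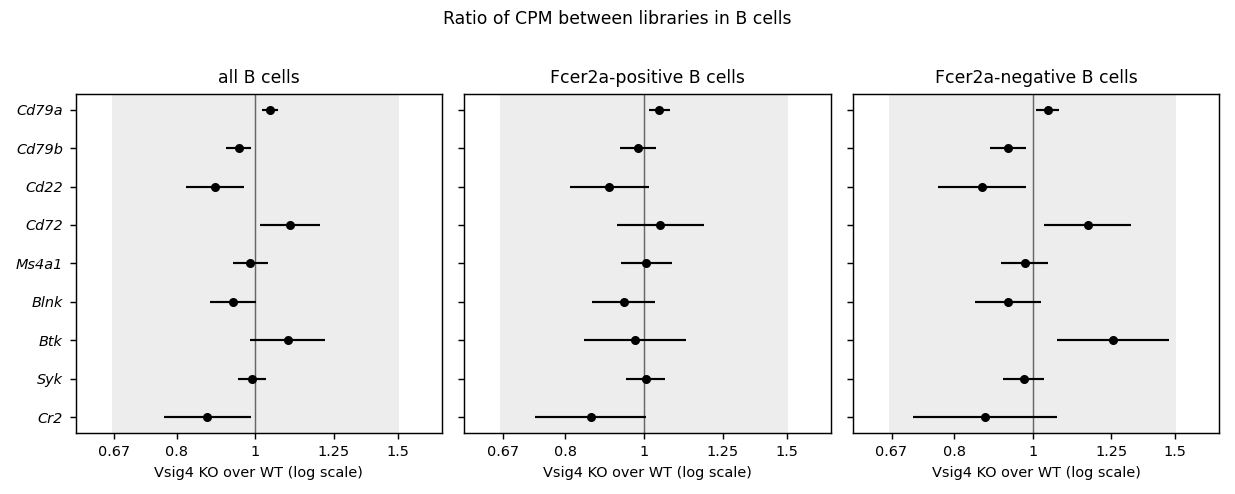
Ratio of CPM, Vsig4 KO over WT, for each of the 9 genes in all B cells, Fcer2a-positive and Fcer2a-negative B cells (log scale); points are ratios, bars 95% intervals of counting error, and the shaded band is less than 1.5-fold. Every point lies within the band, and Btk has the widest step between the Fcer2a-positive (0.975) and Fcer2a-negative cells (1.26).

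Beside the members, the wider pathway was read in the same B cells from lists of related genes, against 6.08% of all 9206 genes past 1.5-fold, 51.5% with a ratio above 1 and 48.5% below it. Among 20 proximal kinases and adaptors, 0 were higher and 0 lower, with a median log2 ratio of -0.05; Blk, a Src-family kinase of B cells, was at a ratio of 0.845 (0.789 to 0.906), and Nck2, an adaptor, at 1.24 (0.971 to 1.58). Of 18 coreceptor and adhesion genes measured, 0 were called either way, with a median of -0.02; Il4ra, the interleukin 4 receptor chain, was at 0.740 (0.660 to 0.830) and Fcrl5, an Fc receptor-like gene, at 1.27 (0.892 to 1.83). Of 16 inhibitory receptors and phosphatases, 0 were called and 13 had a ratio above 1, with a median of 0.13; Ptpn22, a tyrosine phosphatase gene, was at 1.26 (1.13 to 1.41) and Cbl, a ubiquitin ligase, at 0.815 (0.730 to 0.910). The same list had 12 of 16 above 1 in B cells with a UMI of Fcer2a (a median of 0.19) and 9 of 16 in those without (a median of 0.08). The lists share the B cells and libraries of the members.

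Downstream of the receptor, 0 of 19 calcium, MAPK and NF-kB genes were called, with a median of -0.11, and the lowest was Nfkb1 at 0.728 (0.676 to 0.783). The constant-region genes of the receptor's own immunoglobulin chains had a ratio below 1 in 6 of 6, with a median of -0.34, from 0.745 for Igkc to 0.813, and none passed 1.5-fold. Among 18 genes that receptor engagement is known to induce, 0 were higher and 3 lower: Egr3 at 0.488 (0.432 to 0.551), Nr4a3 at 0.547 (0.475 to 0.629) and Egr2 at 0.572 (0.379 to 0.856). Of the 18, 10 had a ratio above 1, and the list's median was 0.06. The highest ratio was that of the chemokine gene Ccl3, at 1.48 (0.923 to 2.40), from 29 and 54 UMIs. Genes short of 1.5-fold also had intervals that left out 1, on either side. Examples are Dusp2 at 1.319 (1.257 to 1.385) and Nfkbid at 0.753 (0.7045 to 0.8053).

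Splitting B cells by Fcer2a, which encodes CD23, a mark of mature follicular B cells, gave 857 WT and 969 Vsig4 KO cells with a Fcer2a UMI and 873 and 925 without. The split is a range and not a type, because 468 of the WT and 499 of the Vsig4 KO positive cells held exactly 1 Fcer2a UMI, and positive cells were deeper (median 2529 and 2958 UMIs) than negative ones (2327 and 2651). Between the libraries, 0 of 9 members passed 1.5-fold in the positive cells, where 6.68% of genes did, and 0 of 9 in the negative cells, where 7.49% did. Btk had the largest step: in Fcer2a-negative cells it was at 120.4 CPM in WT and 151 CPM in Vsig4 KO, a ratio of 1.26 (1.07 to 1.47), while in positive cells it was at 144 and 140.4 CPM, a ratio of 0.975 (0.843 to 1.13). Whether these ratios differ from each other was not tested. Cd72 was at a ratio of 1.17 (1.03 to 1.32) in negative and 1.05 (0.927 to 1.19) in positive cells.

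Within each library, Cr2 was the member that went furthest with Fcer2a. It stood at 86.9 CPM in negative and 132 CPM in positive WT cells, a ratio of 1.52 (1.26 to 1.83), and at 76.0 and 113 CPM in Vsig4 KO cells, a ratio of 1.49 (1.248 to 1.78). CD21 and CD23 are both surface marks of mature B cells. Because the second ratio falls just under 1.5-fold, 0 of 9 members passed in both libraries, where 1.22% of 7407 genes did. Ms4a1 went the other way, at 730 CPM in negative and 569 CPM in positive WT cells (ratio 0.780), and at a ratio of 0.803 in Vsig4 KO cells. Cd79b was also lower with Fcer2a, at ratios of 0.842 and 0.886, and Cd22 was higher, at 1.13 and 1.18. Ighd, the IgD heavy chain, was higher at 1.249 and 1.32, and Vpreb3, a gene of immature B cells, lower at 0.582 and 0.649.

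B cells fell into 4 clusters, numbered 0, 1, 2 and 11. The members were among the genes that formed them, so differences between clusters describe the grouping and support nothing. Cluster 0 (746 WT and 469 Vsig4 KO cells) was led by Fcer2a, Ighd and Bank1, cluster 2 (330 and 547) by Egr3 and Myc, and cluster 11 (205 and 248) by Vpreb3, Sox5 and Ms4a1; cluster 1 held 449 and 630 cells.

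The Vpreb3-high cluster 11 had the highest Ms4a1, Cd79b, Cd72 and Cd79a and the lowest Cr2 of the 4 in both libraries. Ms4a1 reached 1547 CPM in WT and 1540 CPM in Vsig4 KO there, 2.99 and 3.11 times its level in the other B cells. Cd79b was at 2235 and 2189 CPM (2.07 and 2.17 times), and Cd72 at 382 and 434 CPM (2.20 and 2.33 times). Cr2 was at 56.3 and 56.7 CPM, 0.478 and 0.555 times the other B cells. With these, 4 of 9 members passed 1.5-fold in the same direction in both libraries, and 13.4% of genes did. Fcer2a was lower in the same cells at 0.295 and 0.255 times, and Cd24a, the heat-stable antigen of immature B cells, higher at 3.43 and 3.05 times.

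Cluster 0 had the highest Cr2, 152 CPM in WT and 148 CPM in Vsig4 KO, which was 1.96 and 1.89 times the other B cells; it was the 1 member of 9 called there, where 5.01% of genes were. Cluster 1 had the lowest Ms4a1, 383 and 438 CPM, again 1 of 9 against 5.99% of genes. Cluster 2 had the lowest Cd79b, 727 and 831 CPM, 1 of 9 against 4.02% of genes. The ratio of the receptor chains moved with this: there were 54.9 and 50.8 Cd79b UMIs per 100 Cd79a UMIs in cluster 11, 45.8 and 46.1 in cluster 0, 27.3 and 25.6 in cluster 1, and 25.3 and 28.5 in cluster 2. Because the members helped form the clusters, this spread between clusters describes the grouping and is no measure for the difference between genotypes.

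**Figure D2:**
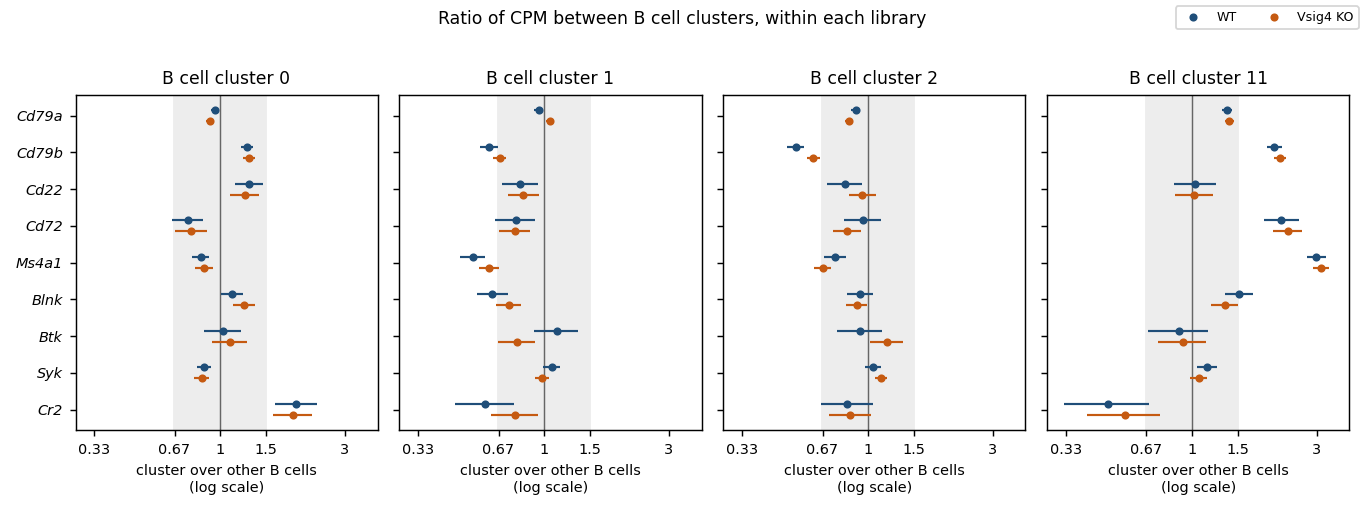
Ratio of CPM of each gene in 1 B cell cluster over all other B cells, within each library (log scale), for clusters 0, 1, 2 and 11; bars are 95% intervals of counting error and the shaded band is less than 1.5-fold. Ms4a1, Cd79b and Cd72 lie right of the band and Cr2 left of it in cluster 11 in both libraries.

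Between the libraries inside a cluster, no member passed 1.5-fold: the count was 0 of 9 in cluster 0 (8.07% of all genes tested), cluster 1 (8.89%), cluster 2 (10.2%) and cluster 11 (11.1%). Cr2, the lowest ratio over all B cells, was at 0.975 (0.814 to 1.17) in cluster 0, 1.103 (0.814 to 1.504) in cluster 1, 0.906 (0.702 to 1.17) in cluster 2 and 1.01 (0.624 to 1.64) in cluster 11. The numbers of cells in the clusters differ between the libraries too, and their part in the overall ratio was not tested. Cd79b, below 1 over all B cells, was at 1.006 (0.949 to 1.07) in cluster 0, 1.05 (0.964 to 1.15) in cluster 1, 1.14 (1.05 to 1.249) in cluster 2 and 0.9795 (0.910 to 1.05) in cluster 11, so that 1 of the 4 clusters lay below 1. Btk in cluster 2, the Egr3 and Myc cluster, was at 126 CPM in WT and 162 CPM in Vsig4 KO, a ratio of 1.29 (1.04 to 1.59), while in cluster 1 its ratio was 0.839 (0.67 to 1.05).

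Across all kept cells, the members fell into those found mostly in B cells and those spread over other lineages. B cells held 91.4% of all Cr2 UMIs in WT and 93.3% in Vsig4 KO, 91.6% and 92.6% of Ms4a1, 89.4% and 91.0% of Cd79a, 86.6% and 92.3% of Cd22, and 84.6% and 88.1% of Cd79b. They held less of Blnk (56.9% and 63.3%), Btk (53.2% and 71.6%), Cd72 (48.5% and 62.2%) and Syk (47.4% and 64.3%). These shares move with how many B cells a library held. The largest other holders were pDC for Blnk, with 28.5% and 20.5% of its UMIs, and the monocyte or macrophage class for Syk, with 23.6% and 13.8%.

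**Figure D3:**
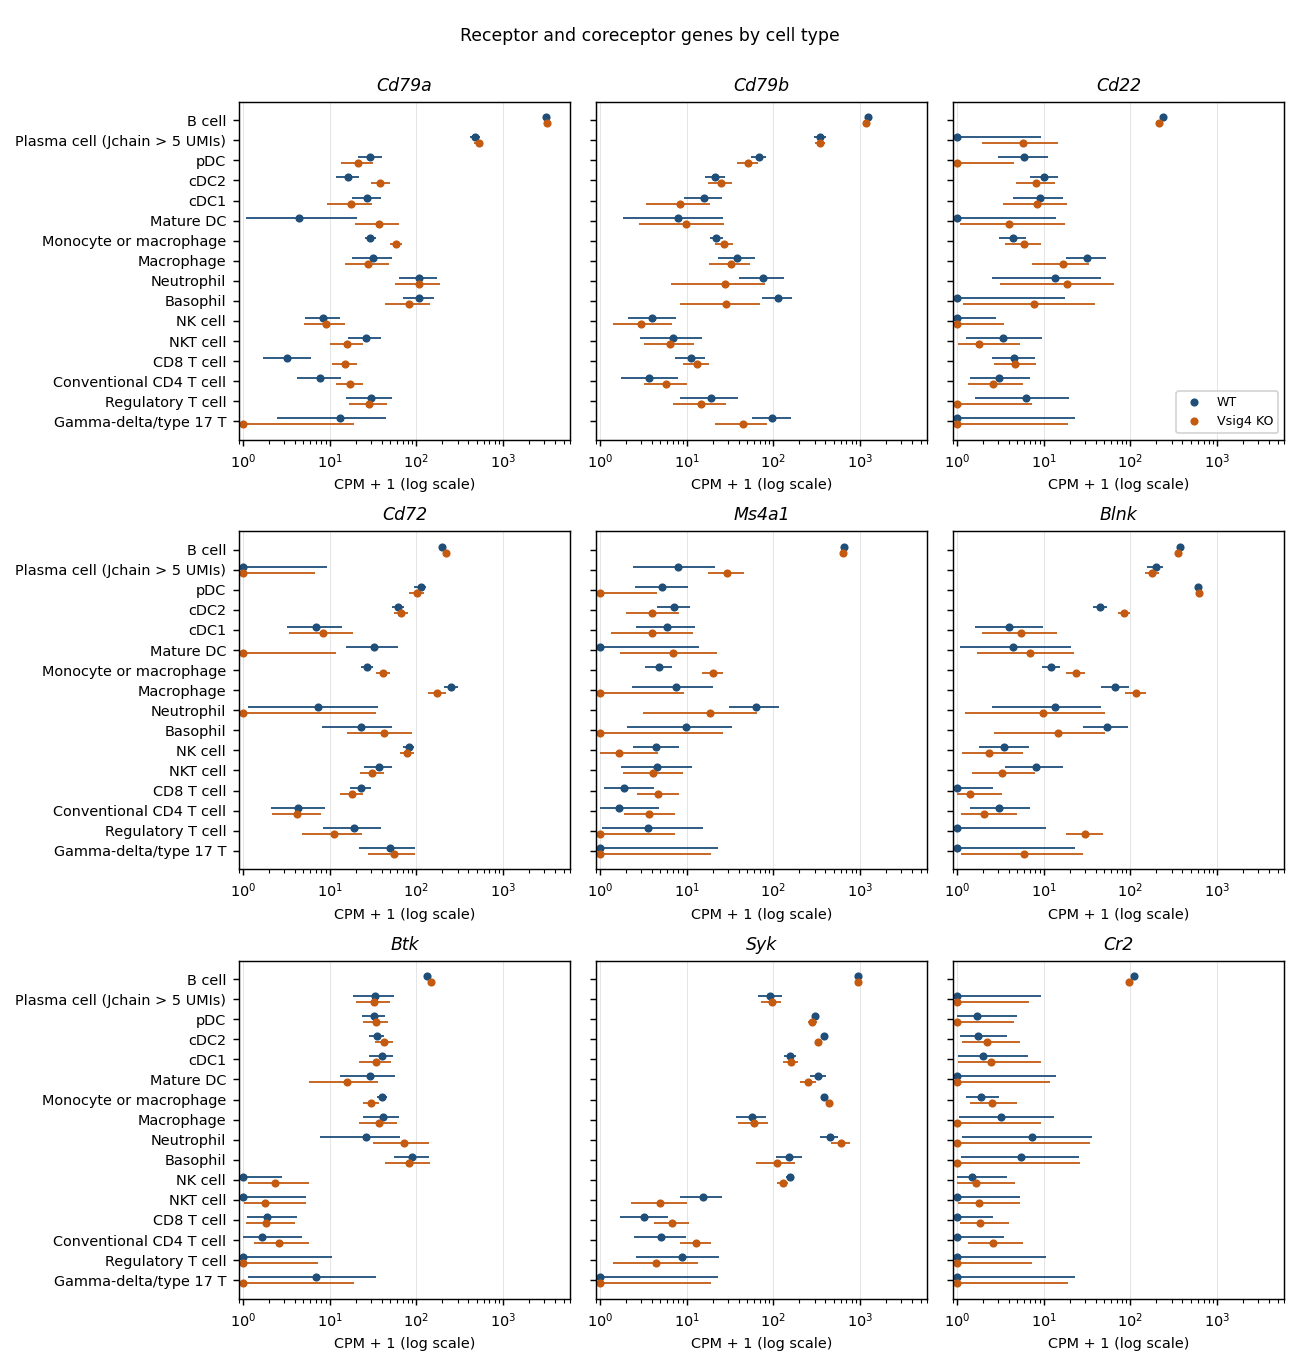
CPM of each of the 9 genes in the cell classes of the WT and Vsig4 KO libraries, with 95% intervals of counting error. Cd79a, Cd79b, Cd22, Ms4a1 and Cr2 peak in B cells, Blnk peaks in pDC (609 and 623 CPM), and Cd72 in macrophages stands at 250.3 and 174 CPM.

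In pDC, the interferon-producing dendritic cells (244 WT cells, median 5698 UMIs, and 167 Vsig4 KO cells, median 6557), Blnk was above its B cell level. It was at 609 CPM in WT (569 to 651; 853 UMIs) and 623 CPM in Vsig4 KO pDC (576 to 673; 653 UMIs), which was 1.61 and 1.76 times the B cell level, with no overlap of the intervals. A Blnk UMI was found in 82.8% and 81.4% of pDC, and in 39.7% (33.5 to 46.1) and 44.7% (36.7 to 53.0) after thinning, against 29.8% and 28.7% of thinned B cells. The pDC marker Siglech stood at 2264 and 2012 CPM there, and Pax5 had 8 and 4 UMIs. Leaving out the 14 WT and 8 Vsig4 KO pDC with an Ebf1, Pax5 or Fcmr UMI, an alternative chosen after seeing the data, gave Blnk at 602.5 and 629 CPM.

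The other members were lower in pDC than in B cells. Syk was at 304 and 282 CPM, Cd72 at 111 and 100.2 CPM, and Btk at 31.4 and 33.4 CPM. Cd79b was at 67.1 CPM in WT (94 UMIs) and 49.6 CPM in Vsig4 KO pDC (52 UMIs), and 56.6 and 43.9 CPM remained without the 14 and 8 cells. Cd79a was at 28.5 and 20.0 CPM, but 95% of its WT and 61.9% of its Vsig4 KO UMIs were in those 14 and 8 cells, and without them 2 and 8 UMIs were left. Its ratio of 0.702 (0.393 to 1.22) thus turned direction without those cells, as it did without doublet removal, at 1.60. The chain ratio in pDC, 239 Cd79b UMIs per 100 Cd79a UMIs over both libraries (176 to 328), stood far above the 37.3 of B cells, the reverse of the order there. That order was not particular to pDC. Without cells that held an Ebf1, Pax5 or Fcmr UMI, cDC2 had 29 and 23 UMIs of Cd79b against 7 and 6 of Cd79a. The monocyte or macrophage class had 43 and 14 against 12 and 10. NK cells had 5 and 3 against 11 and 12, and Cd79a also led in conventional CD4 T cells and NKT cells. Cd22, Ms4a1 and Cr2 had 7, 6 and 1 UMIs in WT pDC and 0 in Vsig4 KO pDC, below the 20 UMIs used here. Of the 6 members measured, 0 passed 1.5-fold between the libraries, where 15.1% of genes with at least 20 UMIs did, and Blnk was at a ratio of 1.02 (0.923 to 1.14).

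Cd72 in macrophages (183 WT and 148 Vsig4 KO cells) was above its B cell level in WT and below it in Vsig4 KO. It was at 250.3 CPM in WT (206 to 301; 113 UMIs) and 174 CPM in Vsig4 KO macrophages (137 to 217; 77 UMIs), against 200 and 220.5 CPM in B cells. Macrophages over B cells gave ratios of 1.253 (1.02 to 1.53) in WT and 0.789 (0.618 to 0.993) in Vsig4 KO. The Vsig4 KO ratio was 0.877 (0.687 to 1.104) under TMM scaling and 0.902 (0.582 to 1.34) after thinning, which both take in 1. Leaving immunoglobulin, ribosomal protein and mitochondrial genes out of the total gave 1.197 (0.975 to 1.457) in WT, which takes in 1, and 0.746 (0.585 to 0.939) in Vsig4 KO. The WT ratio was 1.407 (1.147 to 1.713) under TMM scaling and 1.715 (1.239 to 2.33) after thinning. Between the libraries the macrophage ratio was 0.695 (0.513 to 0.936), short of 1.5-fold. Without cells that held an Ebf1, Pax5 or Fcmr UMI it was at 246 and 162 CPM, a ratio of 0.657 (0.480 to 0.896), which passes 1.5-fold, as do 0.659 under TMM scaling and 0.653 after thinning. Cd79a, which marks B cell RNA, had 14 and 12 UMIs in these cells. With at most 5% mitochondrial UMIs, at least 500 genes, or no doublet removal, the macrophage class was larger, at 411 to 428 WT and 224 to 253 Vsig4 KO cells. The monocyte or macrophage class then held 0 cells, or 117 and 50 with at least 500 genes. Which cells changed class was not tested. Under these settings Cd72 in macrophages was at 0.415 to 0.477 times its B cell level. Its ratio between libraries turned direction, to 1.201 (0.962 to 1.498), 1.19 (0.959 to 1.47) and 1.24 (0.999 to 1.53). When the libraries were clustered separately it was at 0.350 and 0.692 times the B cell level, and the ratio between libraries was 2.201 (1.72 to 2.81); there 480 WT and 252 Vsig4 KO cells were in macrophages, and no Vsig4 KO cell was left in the monocyte or macrophage class.

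In NK cells (628 and 419 cells) Cd72 was at 80.7 and 77.6 CPM with thinned shares of 7.20% and 8.07%, above the 1.11% and 0.994% of CD8 T cells, while Cd79a had 15 and 12 UMIs there. For the clusters as formed here, the order of Cd72 levels was macrophages and B cells, then pDC, then NK cells and the plasma cell cluster (76.1 and 71.3 CPM). Next was cDC2 (type 2 conventional dendritic cells) at 60.3 and 65.6 CPM. The plasma cell cluster is mixed, and its Jchain-rich cells, described below, had no Cd72 UMI. In WT the interval of pDC (94.5 to 130.2) just cleared that of NK cells (68.8 to 94.1), in Vsig4 KO these neighbours overlapped, and NK cells and cDC2 overlapped in both. Cd5, whose product is the reported partner of CD72, was in other cells: conventional CD4 T cells had 291 and 248 CPM of Cd5 and B cells 13 and 11 UMIs.

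Blnk in myeloid cells was higher in the Vsig4 KO library in each of the 3 classes with at least 50 UMIs. In macrophages it was at 66.5 CPM in WT and 115 CPM in Vsig4 KO, a ratio of 1.73 (1.08 to 2.82), with thinned shares of 4.58% (1.86 to 9.20) and 13.4% (7.995 to 20.6). Over 8 alternatives the ratio ran from 1.58 without doublet removal to 4.06 (2.90 to 5.68) with the libraries clustered separately. In the latter the classes were unlike, as 312 WT and 0 Vsig4 KO cells were in the monocyte or macrophage class. As first clustered, Blnk in the monocyte or macrophage class (837 and 303 cells) was at 11.3 and 22.5 CPM, a ratio of 1.99 (1.37 to 2.88). That class joins cluster 3 (528 WT and 133 Vsig4 KO cells), led by Klra2 and Lyz2, and cluster 8 (309 and 170), led by Spp1. The mix of these clusters differs between the libraries. Its part in the ratios of this class, here and below, was not tested. In cDC2 (311 and 164 cells) it was at 43.8 and 84.4 CPM, a ratio of 1.93 (1.495 to 2.49), although the thinned shares there were alike, 4.85% and 4.88%, and 6 WT and 11 Vsig4 KO cells held at least 5 Blnk UMIs. Without cells that held an Ebf1, Pax5 or Fcmr UMI the ratios were 1.97 (1.202 to 3.29), 1.89 (1.13 to 3.13) and 2 (1.52 to 2.63). That condition does not mark pDC, where Blnk was highest: 230 WT and 159 Vsig4 KO pDC held no such UMI. The part of pDC RNA in these ratios was not tested. All 3 comparisons share the same pair of libraries, so they are not independent. In B cells and pDC, where Blnk is most abundant, its ratios were 0.938 and 1.02. The order of Blnk levels was pDC, B cells, the plasma cell cluster (233 and 190.3 CPM), then macrophages and cDC2, whose intervals overlapped in each library.

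For Cd79a and Ms4a1 in the monocyte or macrophage class and in cDC2, most UMIs lay in cells with B lineage UMIs. In the monocyte or macrophage class Cd79a was at 28.7 CPM in WT and 57.2 CPM in Vsig4 KO, a ratio of 1.99 (1.58 to 2.50), but 92.5% and 93.3% of its UMIs lay in the 27 and 24 cells with an Ebf1, Pax5 or Fcmr UMI. Without them 12 and 10 UMIs were left, a ratio of 1.88 (0.726 to 4.74), and Ms4a1, which had 21 and 50 UMIs, was left with 4 and 1. In cDC2 Cd79a was at 15.4 and 37.7 CPM, a ratio of 2.45 (1.62 to 3.75), and 7 and 6 UMIs were left without such cells; without doublet removal the ratio turned direction, to 0.792 (0.606 to 1.03). Cd72 in the monocyte or macrophage class went from 26.0 to 40.4 CPM, a ratio of 1.55 (1.197 to 2.01), and to 1.32 (0.986 to 1.77) without such cells. Members past 1.5-fold were 4 of 7 measured in the monocyte or macrophage class (Cd79a, Cd72, Ms4a1 and Blnk, all higher), where 9.78% of genes passed. They were 2 of 6 in cDC2 (Cd79a and Blnk, both higher) against 7.98%, and 1 of 3 in macrophages (Blnk) against 12.0%. These counts are over all cells. Without cells that held an Ebf1, Pax5 or Fcmr UMI, Cd79a in both classes and Ms4a1 in the first had fewer than 50 UMIs. Cd72 in the monocyte or macrophage class was then short of 1.5-fold, while Blnk still passed there and in cDC2. In macrophages Blnk passed and Cd72, lower, passed as well.

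**Figure D4:**
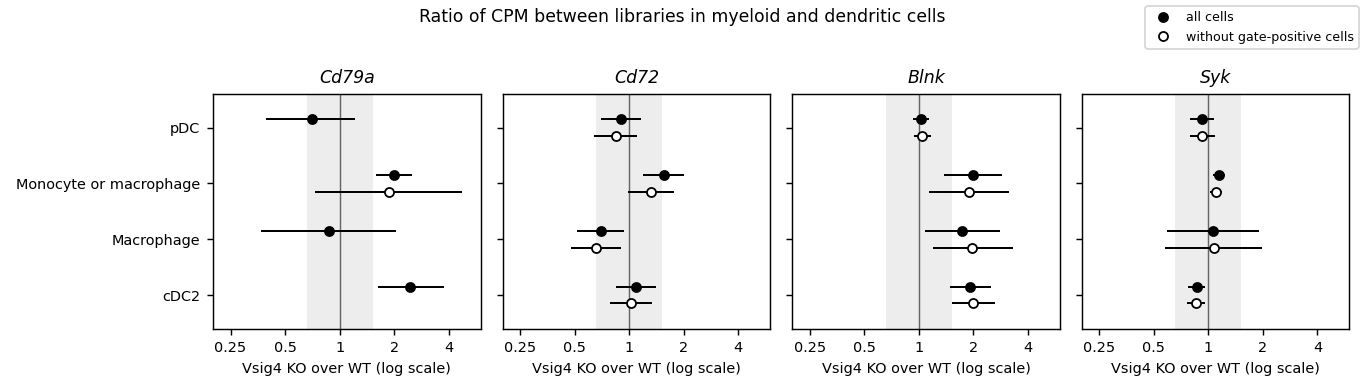
Ratio of CPM, Vsig4 KO over WT, of Cd79a, Cd72, Blnk and Syk in pDC and 3 myeloid classes (log scale), with all cells (filled) and without cells that held an Ebf1, Pax5 or Fcmr UMI (open); bars are 95% intervals of counting error and the band is less than 1.5-fold. Blnk stays right of the band in the 3 myeloid classes with either set of cells; Cd79a without such cells is drawn for 1 class, where its interval is widest.

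Syk, which also signals from Fc and lectin receptors of myeloid and NK cells, was next highest after B cells in neutrophils (446 CPM in WT and 600 CPM in Vsig4 KO, from 71 and 67 UMIs) among named classes. The monocyte or macrophage class had 386 and 443 CPM, a ratio of 1.15 (1.07 to 1.23), and cDC2 382 and 329 CPM, a ratio of 0.862 (0.775 to 0.958). NK cells had 156 and 128 CPM, a ratio of 0.819, and macrophages 55.4 and 58.7 CPM. The neutrophil interval overlapped that of the monocyte or macrophage class in WT (349 to 563 against 370 to 403) but not in Vsig4 KO (465 to 761 against 418 to 469). Btk in basophils was at 89.5 CPM in WT (54.7 to 138; 20 UMIs) and 82.3 CPM in Vsig4 KO (42.5 to 144; 12 UMIs), with intervals that overlapped those of the plasma cell cluster (86.6 and 54.2 CPM). In the monocyte or macrophage class it was at 38.9 and 29.3 CPM, a ratio of 0.754 (0.574 to 0.982), which turned to 1.15 (0.584 to 2.15) after thinning.

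In the cluster of plasma cells, the antibody-secreting end stage of B cells, cells with more than 5 UMIs of Jchain (the antibody joining chain) held the signal chains and had few or no UMIs of the coreceptors. These cells, a split set after seeing the data, numbered 32 in WT and 39 in Vsig4 KO. Cd79a was at 474 and 522 CPM, Cd79b at 344 and 344 CPM, and Blnk at 195 and 178 CPM. Cd72 and Cr2 had 0 UMIs in both libraries, Cd22 had 0 and 3, and Ms4a1 had 3 and 18. With a count of 3 again taken as the limit, 0 in 32 WT cells allows a share of up to 9.38% of cells with a UMI, and in 39 Vsig4 KO cells up to 7.69%. A further 141 and 135 cells of the cluster were shallow, with an Ebf1, Pax5 or Fcmr UMI and at most 5 Jchain UMIs, in which Cd72 was at 193 and 225 CPM.

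Gamma-delta or type 17 T cells (40 and 38 cells) had more Cd79b than Cd79a, with 16 and 9 UMIs of Cd79b against 2 and 0 of Cd79a. The cycling cluster (52 and 53 cells) had Cd79a at 32.2 CPM in WT and 174 CPM in Vsig4 KO, where Ebf1 had 4 and 28 UMIs; the part of B lineage cells in that difference was not tested. Within thinned B cells the median cell held 3 of the 9 members and the most held 8, and 48.4% of WT and 46.2% of Vsig4 KO B cells held at least 4. The median pDC held 1, and 97.6% and 96.6% of CD8 T cells held none.

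As a description, each member's log2 CPM (prior of 10 CPM) over 18 classes was set against 8580 other genes, by Pearson's r in each library; the classes share a library and differ in depth. The nearest gene was Pax5 for Cd79a (0.968 in WT, 0.935 in Vsig4 KO) and Cd22 (0.942 and 0.901), Fcmr for Ms4a1 (0.986 and 0.973), and Blk for Cd79b (0.962 and 0.933). For Cr2 it was Cacna1i (0.974 and 0.941), followed by Fcer2a. Blnk was nearest to Ly6d (0.942 and 0.887) and Syk to Myo1c (0.953 and 0.913), with Plcg2 among its first 3. Btk was nearest to Zfp608 (0.895 and 0.919), and Cd72 had the weakest partner, Cerk (0.764 and 0.751). Among the members, Btk and Syk went together at 0.829 and 0.862, and Cd79a and Cd72 at 0.437 and 0.395. Pax5 and Fcmr helped define the B cell class, so their nearness to members draws in part on that definition.

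Cr2 lies on chromosome 1, and its neighbours there were read for comparison in B cells. Cr1l, 39 kb away, was at a ratio of 0.918 and Cd46, 100 kb away, at 1.01, beside 0.872 for Cr2. Fcmr, which helped define the B cells, is on the same chromosome at a ratio of 1.195, and near it Cd55 was at 1.41 and Ctse at 0.291 (0.254 to 0.334). With Ebf1 or Pax5 alone as the condition, without Fcmr, and under the other definitions of a B cell, no member passed 1.5-fold.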

How the data were processed

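The deposited matrices hold raw UMI counts, whole numbers for each gene in each barcode. Per the submitters' processing notes the authors aligned and counted reads with Cell Ranger 7.1.0 on mm10; whether counting used strand is not given in the sources used here. Cells needed 200 genes, 500 UMIs and no more than 10% mitochondrial UMIs. Scrublet's own threshold marked 0 cells in WT and 4 in Vsig4 KO and was set aside as not working; the highest doublet scores were removed instead, at 0.8% per 1000 barcodes (381 and 267 cells). Both libraries were clustered together in scanpy 1.11.5 (2000 variable genes, 30 principal components, 15 neighbours, leiden resolution 1.5, the best of 20 starts) into 33 clusters, of which 26 were named from marker lists of 26 classes; the scoring rule was set after seeing the data.

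UMIs were summed per library and class and scaled to CPM. No test was possible over samples, as each genotype has 1; intervals are exact (scipy 1.17.1), and their code was tested on simulated data. Named genes are the 9 members, genes of the B cell condition, Cd5 and Vsig4. They also include up to 4 genes with the largest log2 ratio in each of 6 pathway lists and the 3 genes closest to each member over 18 classes. Cluster markers, the neighbours of Cr2 and Fcmr, and Dusp2 and Nfkbid were named after their values were seen. The Jchain split, the result on the Vpreb3-high cluster the removal of cells with B lineage UMIs from other classes and the alternatives for myeloid classes were also added after seeing the data. Members and lists were chosen with earlier results of these data known. Alternatives changed cell filters, doublet removal, scaling (TMM in edgeR 4.0.16), depth, UMI minimum, fold threshold, B cell definition, Fcer2a cutoff and clustering. Positions came from GENCODE M21 by gene identifier (31184 of 31253 genes).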

Additional observations from a re-analysis of the deposited data

Results flagged for a closer look

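Cd72 was on opposite sides of 1 in neighbouring myeloid classes. Its ratio of Vsig4 KO over WT was 1.55 in the monocyte or macrophage class and 0.695 in macrophages, with intervals that each left out 1 and did not overlap. Without cells that held an Ebf1, Pax5 or Fcmr UMI the ratios were 1.32 (0.986 to 1.77) and 0.657 (0.480 to 0.896). The macrophage ratio lay above 1, at 1.19 to 1.24, under each of the 3 cell filter and doublet settings in which the macrophage class was larger. It was 2.201 with the libraries clustered separately, so the opposite directions hold for the clusters as formed here. The difference between the classes was not tested, since each genotype has 1 library.

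Syk was on opposite sides of 1 in the monocyte or macrophage class, at 1.15 (1.07 to 1.23), and in NK cells, at 0.819 (0.681 to 0.983). In cDC2 it was also below 1, at 0.862 (0.775 to 0.958). Without cells that held an Ebf1, Pax5 or Fcmr UMI, Syk in the monocyte or macrophage class was at 378 CPM in WT and 417 CPM in Vsig4 KO. The ratio of that class was 1.287 (1.035 to 1.597) with at least 500 genes and 1.352 (1.109 to 1.641) after thinning. In cDC2 it was 0.771 (0.551 to 1.066) after thinning, which takes in 1, while under the other alternatives its interval left out 1. These differences were not tested either.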

How the results depend on the processing

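Of 82 alternative values for the counts of members past the threshold, 69 stayed within 1.5 times of the reported count and 13 did not. The pDC count, 0 as reported, was 1 with at most 5% mitochondrial UMIs, with at least 500 genes, without doublet removal and with the libraries clustered separately (Cd79a each time), 3 with no UMI minimum, and 2 at the lower threshold (25% in place of 50% higher, or the matching decrease). The Fcer2a-negative B cell count between libraries, also 0, was 1 at the lower threshold (Btk). The count apart between Fcer2a-positive and Fcer2a-negative B cells, 0 as reported, was 1 (Cr2) under TMM, thinning, the lower threshold, the UMI condition alone, the B cell-like clusters alone and at least 2 Fcer2a UMIs. Of 1696 values for single genes, 1513 stayed within their counting interval, 182 moved and 1 called value changed sign, that of Cd79a in cDC2, at 0.792 without doublet removal. Over 13 alternatives the 9 B cell ratios stayed between 0.814 and 1.24. The ratio of Cd79a in pDC went from 0.702 to 1.60 without doublet removal, and that of Blnk in pDC over B cells ran from 1.46 to 1.81 in WT and from 1.59 to 1.95 in Vsig4 KO. The causes of these moves were not tested. No paired analysis was possible because each genotype has 1 library.

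Depth limits Cr2 and Btk most, with a thinned UMI in 7.69% to 12.4% of B cells, and outside B cells the counts of Cd22, Ms4a1 and Cr2 are mostly too low to compare. Mice per library are unknown, so genotype, mouse and library cannot be told apart.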
